A study of Mus musculus with 17 samples.

Results

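The 10 enzyme transcripts described here encode the muscle-abundant steps of glycolysis from phosphofructokinase to lactate dehydrogenase. They are Pfkm, Aldoa, Tpi1, Gapdh, Pgk1, Pgam2, Eno3, Pkm, Ldha and Ldhb, chosen by symbol from the 47643 gene symbols of the expression table. RNA-seq was performed on the diaphragm, the main muscle of breathing, of 17 male C57BL/6J mice aged 4 months. Control mice carried no tumor and received mock injections of albumin in buffered saline (n = 5), whereas Control + rFibcd1 mice carried no tumor and received rFibcd1 (n = 5). LLC mice (n = 3) carried tumors after injection of Lewis lung carcinoma cells, a mouse line, into each flank, and received the mock injections. LLC + rFibcd1 mice (n = 4) carried the same tumors and received rFibcd1. rFibcd1 is a recombinant C-terminal fragment of mouse Fibcd1, a transmembrane protein. The study found a similar fragment in the medium of cultured cells that expressed full-length Fibcd1. rFibcd1 was given into the peritoneal cavity on alternate days during the last week. All groups share strain, sex, age and tissue, and each value stands for a separate mouse. The comparisons address how a tumor elsewhere in the body, and rFibcd1, alter muscle transcripts.

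Glycolysis splits glucose into pyruvate in the cytosol and yields ATP without oxygen. Fast-twitch fibers, which contract in short bursts, carry large amounts of its enzymes, whereas slow fibers rely more on mitochondrial oxidation. Several steps are encoded by a muscle-enriched gene beside isozymes that serve other tissues. Pfkm, Pgam2 and Eno3 are such muscle-enriched forms, and Ldha and Ldhb encode the subunits of lactate dehydrogenase typical of fast muscle and of heart and oxidative muscle, respectively.

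The diaphragms held the transcripts that define this tissue. A list of 12 sarcomere and myofiber genes summed to between 42589 and 54788 TPM (transcripts per 1000000, from reads per gene length) in the 17 mice, and both fast and slow fiber genes were present in every mouse. Depth, recovered from the low values of the table, was 50.7 to 54.5 reads a mouse in units of 1000000, so that each of the 9 members other than Aldoa, whose symbol covers 2 annotated genes, rested on at least 19326 reads with a counting error of at most 0.72%. Transcripts encoded by mitochondrial DNA took 41.3% to 50.4% of all TPM, and because TPM has a fixed total a lower mitochondrial share raises the other genes. Alb, the serum albumin gene of liver, reached 1934 TPM in Control + rFibcd1 replicate 2. Macrophage and adipocyte lists peaked within the tumor-free mice in Control + rFibcd1 replicate 1, at 1663 and 434 TPM, and the adipocyte list peaked over all mice in LLC replicate 1, at 954 TPM. Their part in the results was not tested, and values without each mouse are given where a call changed.

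The genes lie on 6 chromosomes of build GRCm38 in the GENCODE annotation. Tpi1 (chr6:124810586-124814296, minus strand), Gapdh (chr6:125161715-125166467, minus strand) and Ldhb (chr6:142490249-142507957, minus strand) share chromosome 6. Ldha (chr7:46841475-46855627, plus strand) and Aldoa (chr7:126795234-126800751, minus strand) lie on chromosome 7. A further annotated gene carries the symbol Aldoa at chr7:126800790-126809108, so the Aldoa value may combine both. Pgam2 (chr11:5801640-5803733, minus strand) and Eno3 (chr11:70657202-70662513, plus strand) lie on chromosome 11. Pkm is at chr9:59656368-59679375 (plus strand), Pfkm at chr15:98092589-98132451 (plus strand) and Pgk1 at chrX:106187100-106203699 (plus strand). For Gapdh the table lists 187 genes with a stretch of at least 200 bases at 90% identity or more, most of them pseudogenes, of which 15 were above 0, and their sum was at most 10.1 TPM, or 0.83% of Gapdh. The 15 listed genes of this kind for Ldha were all at 0.

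The start regions of the genes were read for motifs of hypoxia and muscle factors. RefSeq windows were available for all 10 genes, 17 windows in all, and the 250 bases before each annotated start were searched on both strands for ACGTG, the core of the hypoxia response element, for CAGCTG, an E-box bound by myogenic factors, and for the consensus of the muscle factor MEF2. CACGTG reads the same on both strands and so counts as 2 matches. The core ACGTG was present in 7 of the 17 windows, from Aldoa, Ldha, Pfkm, Pgk1 and Pkm, against 16.7% of the 32536 windows of all genes, although the match in 2 overlapping Aldoa windows is the same and is counted for each. CAGCTG was present in 2 windows, from Pgam2 and Pkm (13.1% of all windows), and the MEF2 consensus in 1, from Pgam2 (2.89% of all windows). The windows of 5 genes are shown, 5′ to 3′ on the gene's strand and on GRCm38, with matches in capitals: the lactate dehydrogenase pair, whose balance is read later, Eno3 and Pgk1, with the lowest adjusted p-values among the members in treated tumor mice, and Pgam2, which holds both muscle motifs.
Ldha (chr7:46845554-46845803, plus strand): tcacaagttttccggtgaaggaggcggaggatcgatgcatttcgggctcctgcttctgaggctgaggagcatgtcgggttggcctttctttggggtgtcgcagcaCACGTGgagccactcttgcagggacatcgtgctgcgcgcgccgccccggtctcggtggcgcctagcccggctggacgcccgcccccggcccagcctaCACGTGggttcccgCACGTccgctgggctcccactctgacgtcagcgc
Ldhb (chr6:142507958-142508207, minus strand): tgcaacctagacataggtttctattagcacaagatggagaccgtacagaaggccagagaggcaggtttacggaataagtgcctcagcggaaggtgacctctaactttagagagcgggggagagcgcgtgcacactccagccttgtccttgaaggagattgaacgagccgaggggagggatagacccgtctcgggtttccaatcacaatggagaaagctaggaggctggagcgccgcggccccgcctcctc
Eno3 (chr11:70656926-70657175, plus strand): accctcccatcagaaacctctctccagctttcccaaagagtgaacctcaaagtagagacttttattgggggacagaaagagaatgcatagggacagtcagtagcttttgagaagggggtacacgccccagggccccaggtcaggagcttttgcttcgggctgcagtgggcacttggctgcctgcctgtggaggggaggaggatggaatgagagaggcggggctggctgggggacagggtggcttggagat
Pgk1 (chrX:106186850-106187099, plus strand): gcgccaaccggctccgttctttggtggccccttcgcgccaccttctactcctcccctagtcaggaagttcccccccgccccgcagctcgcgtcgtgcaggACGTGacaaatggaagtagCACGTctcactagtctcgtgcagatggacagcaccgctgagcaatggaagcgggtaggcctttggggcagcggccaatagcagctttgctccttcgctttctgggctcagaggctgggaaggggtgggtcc
Pgam2 (chr11:5803797-5804046, minus strand): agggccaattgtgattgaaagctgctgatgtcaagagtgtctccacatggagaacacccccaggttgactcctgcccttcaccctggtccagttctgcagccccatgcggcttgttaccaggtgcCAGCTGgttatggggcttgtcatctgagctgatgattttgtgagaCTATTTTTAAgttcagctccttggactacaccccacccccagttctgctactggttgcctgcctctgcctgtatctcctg
The Ldha window shown held 5 matches of ACGTG, another Ldha window (chr7:46846832-46847081) held 0, the Pgk1 window held 2, and the Ldhb and Eno3 windows held no match of any of the 3 motifs. A match describes the letters only, and no binding was measured.

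Glycolytic transcripts were among the abundant messages of the healthy diaphragm. In Control mice the 10 genes together made up 1.15% ± 0.066 of all TPM (SD, n = 5). Aldoa, which cleaves fructose bisphosphate, was highest at 2036 ± 205 TPM (SD, n = 5) and ranked 34th among all genes by mean. Eno3 followed at 1582 ± 151, Pgam2 at 1548 ± 139, Ldhb at 1504 ± 139 and Gapdh at 1267 ± 78.4 TPM. Each neighbor in this upper series overlapped the next in its range over mice. Below it came Pfkm at 1092 ± 41.0, Pkm at 927 ± 36.6 and Tpi1 at 690 ± 38.5 TPM, with no overlap between Gapdh and Pfkm, Pfkm and Pkm, Pkm and Tpi1, or Tpi1 and the next gene. Ldha, at 436 ± 29.2 TPM, and Pgk1, at 396 ± 25 TPM, were lowest and overlapped. The heart-type Ldhb thus stood above the muscle-type Ldha in all 5 Control mice.

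**Figure D1:**
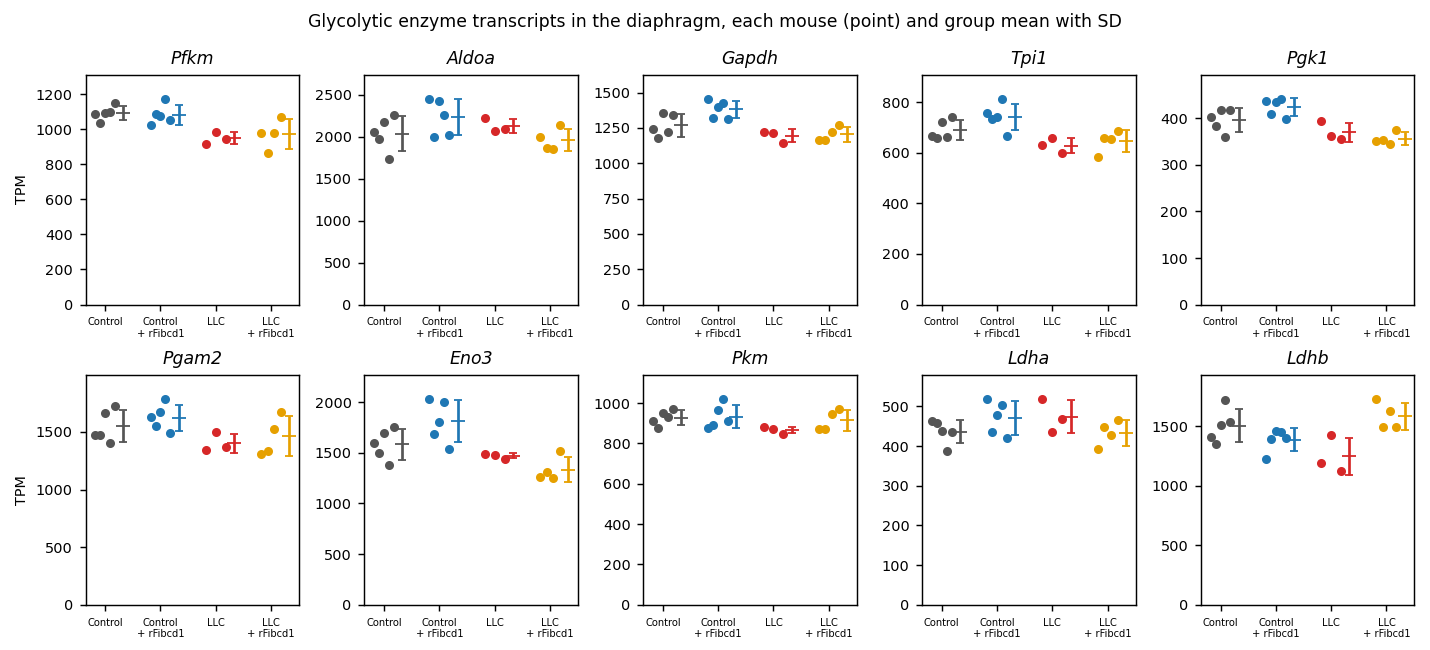
TPM of the 10 enzymes in each of the 17 diaphragms (points), by group on the horizontal axis, with the group mean and SD beside the points. Pfkm in the LLC mice, at 917 to 983 TPM, sits below all Control mice, at 1034 to 1150 TPM, and Eno3 is lowest in LLC + rFibcd1.

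With mock-injected and rFibcd1-injected mice pooled, mice with tumors had moderately fewer transcripts of 5 of these enzymes. With the 7 tumor-bearing mice set against the 10 tumor-free mice, these 5 of 10 passed the test and were lower in TPM as deposited, although the sign of 4 of them (Pfkm, Gapdh, Tpi1 and Pgk1) turned when TPM were scaled to the myofiber list. Over all genes tested, 5.98% were called lower and 44.8% were called in either direction in this comparison. Of the 5, Pfkm alone was also called in LLC against Control. Eno3, Pgk1 and Gapdh were called in LLC + rFibcd1 against Control + rFibcd1, and Tpi1 in neither. Eno3, muscle enolase, fell most, by 0.28 ± 0.064 on the log2(TPM + 1) scale (± SE; adjusted p = 0.0049, limma). Its change was -0.10 among mock-injected mice (adjusted p = 0.417, limma) and -0.44 among rFibcd1-injected mice (adjusted p = 0.00886, limma). Pgk1, phosphoglycerate kinase, fell by 0.18 ± 0.037 (adjusted p = 0.00318, limma) and Pfkm, which commits sugar to the pathway, by 0.18 ± 0.040 (adjusted p = 0.00439, limma). Tpi1, which interconverts the triose phosphates, fell by 0.16 ± 0.044 (adjusted p = 0.00905, limma) and Gapdh, which oxidizes glyceraldehyde phosphate, by 0.14 ± 0.036 (adjusted p = 0.0079, limma). Pgam2, muscle phosphoglycerate mutase, was at -0.14 ± 0.059 (adjusted p = 0.0589, limma) and did not pass, but passed without Control replicate 4 (adjusted p = 0.0398, limma) or LLC + rFibcd1 replicate 4 (adjusted p = 0.0158, limma), and with all mice under 3 other scalings of TPM (adjusted p = 0.0164 to 0.0199, limma). Aldoa (-0.07), Pkm (-0.06), Ldha (-0.01) and Ldhb (-0.01) had small log2 differences that did not pass. The pooled value of Ldhb combines -0.27 among mock-injected and 0.19 among rFibcd1-injected mice. Under other scalings Pkm was called in both directions, lower without mitochondrially encoded genes (-0.14, adjusted p = 0.0398, limma) and with median-ratio scaling (-0.21, adjusted p = 0.0294, limma) and higher when scaled to the myofiber list (0.14, adjusted p = 0.0215, limma). Aldoa was called lower with median-ratio scaling (-0.22, adjusted p = 0.0424, limma). The median over the 10 enzymes was -0.14, against 0.13 over all genes tested. Each of the 5 calls was kept when any of the 17 mice was left out, and all 5, Eno3 at -0.09 among them, were lost when scaled to the myofiber list (adjusted p = 0.328 to 0.801, limma).

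LLC and Control mice were then compared without rFibcd1. Here 2 of the 10 enzymes were called, Pfkm and Ldhb, both lower, against 6.02% of all genes called lower and 35.8% called in either direction. Pfkm measured 917, 983 and 943 TPM in the 3 LLC mice and 1085, 1034, 1095, 1097 and 1150 TPM in the 5 Control mice. The groups did not overlap, as was the case with a lower level in LLC for 6.67% of all genes. Its log2 change was -0.20 ± 0.059 (SE, adjusted p = 0.0186, limma). The Pfkm call was lost without LLC replicate 1 (adjusted p = 0.0731, limma), without LLC replicate 3 (adjusted p = 0.0807, limma) and by Dunn's test (adjusted p = 0.118). Pfkm turned to 0.05 when scaled to the myofiber list (adjusted p = 0.5, limma).

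Ldhb, the subunit of oxidative muscle, measured 1190, 1424 and 1125 TPM in LLC and 1409, 1353, 1509, 1717 and 1531 TPM in Control mice. LLC replicate 2 lay within the Control range, and the other two LLC mice below it. The log2 change of Ldhb was -0.27 ± 0.088 (SE, adjusted p = 0.0281, limma). It did not pass without LLC replicate 1 (adjusted p = 0.1, limma) or LLC replicate 3 (adjusted p = 0.156, limma), nor without Control replicate 3 (adjusted p = 0.0501, limma), replicate 4 (adjusted p = 0.0613, limma) or replicate 5 (adjusted p = 0.0543, limma). With all mice, Ldhb was at -0.02 when scaled to the myofiber list (adjusted p = 0.831, limma), and it did not pass on the compared groups alone (adjusted p = 0.0551, limma). Ldha measured 517, 436 and 469 TPM in LLC and 463, 457, 437, 388 and 436 TPM in Control, which overlapped, and its log2 difference was 0.12 ± 0.081 (SE, adjusted p = 0.25, limma).

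The remaining 7 enzymes did not pass in LLC against Control. Aldoa was at 0.07 on the log2 scale, and Gapdh, Tpi1, Pgk1, Pgam2, Eno3 and Pkm lay between -0.14 and -0.09. The interval of Aldoa, from -0.12 to 0.25, and that of Eno3, from -0.30 to 0.10, leave room for changes in either direction. For Tpi1 the difference of -0.13 had an interval of -0.27 to 0.00 (adjusted p = 0.113, limma).

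Tumor-bearing and tumor-free mice were also compared among those given rFibcd1. In LLC + rFibcd1 against Control + rFibcd1, 3 of the 10 enzymes were called, Eno3, Pgk1 and Gapdh, all lower, against 1.04% of all genes called lower and 8.06% called in either direction. Each of the 3 had groups that did not overlap, as did 1.48% of all genes with the lower level in tumor mice. Eno3 measured 1264, 1309, 1248 and 1517 TPM in LLC + rFibcd1 and 2025, 1686, 1802, 1999 and 1537 TPM in Control + rFibcd1. Its log2 change of -0.44 ± 0.087 (SE, adjusted p = 0.00886, limma) was the largest of any enzyme in the pairwise comparisons. In Control mice Eno3 ranged from 1378 to 1750 TPM and in LLC mice from 1442 to 1488 TPM, and both ranges overlapped that of LLC + rFibcd1.

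Pgk1, which makes ATP from bisphosphoglycerate, measured 351, 354, 344 and 376 TPM in LLC + rFibcd1 and 437, 409, 435, 441 and 399 TPM in Control + rFibcd1. It fell by 0.25 ± 0.050 on the log2 scale (SE, adjusted p = 0.00877, limma). Gapdh measured 1165, 1161, 1223 and 1273 TPM against 1453, 1318, 1395, 1425 and 1314 TPM. Gapdh fell by 0.20 ± 0.049 (SE, adjusted p = 0.0252, limma). The Eno3 and Pgk1 calls held without each mouse in turn, but were lost when scaled to the myofiber list (Eno3 at -0.29, adjusted p = 0.0539, and Pgk1 at -0.11, adjusted p = 0.234, limma) and by Dunn's test (adjusted p = 0.175 for each), and that of Eno3 also on the compared groups alone (adjusted p = 0.0518, limma). The Gapdh call was lost without Control + rFibcd1 replicate 3 (adjusted p = 0.052, limma) or replicate 4 (adjusted p = 0.0612, limma). It was also lost without LLC + rFibcd1 replicate 1 (adjusted p = 0.0524, limma), replicate 2 (adjusted p = 0.0843, limma) or replicate 3 (adjusted p = 0.0588, limma), when scaled to the myofiber list (-0.05, adjusted p = 0.534, limma), on the compared groups alone (adjusted p = 0.0632, limma) and by Dunn's test (adjusted p = 0.185).

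Tpi1 lay at the threshold in this comparison. It measured 584, 658, 656 and 686 TPM in LLC + rFibcd1 and 756, 733, 741, 812 and 668 TPM in Control + rFibcd1, with a log2 difference of -0.20 ± 0.059 (SE, adjusted p = 0.0505, limma). Tpi1 passed without Control + rFibcd1 replicate 1 (adjusted p = 0.0459, limma), Control + rFibcd1 replicate 5 (adjusted p = 0.027, limma) or LLC + rFibcd1 replicate 4 (adjusted p = 0.0408, limma). With all mice, Tpi1 passed without mitochondrially encoded genes (-0.27, adjusted p = 0.0477, limma), with quantile normalization (-0.28, adjusted p = 0.0253, limma) and with a filter of 5 TPM in 3 samples (adjusted p = 0.0402, limma), each of which gave 4 enzymes called. Pfkm, at -0.15 (adjusted p = 0.0841, limma), passed without Control + rFibcd1 replicate 1 (adjusted p = 0.0416, limma) and without LLC + rFibcd1 replicate 4 (adjusted p = 0.0323, limma). Leaving out either of these 2 mice gave 5 enzymes called, all lower. Aldoa at -0.18, Pgam2 at -0.16, Ldha at -0.12 and Pkm at -0.03 did not pass. Ldhb was the only enzyme with a positive difference, of 0.19 ± 0.081 (SE, adjusted p = 0.133, limma), and its groups did not overlap, as for 7.43% of all genes with the higher level in tumor mice. When scaled to the myofiber list, Ldhb passed at 0.34 (adjusted p = 0.00401, limma).

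LLC + rFibcd1 mice were also set against the Control mice, which are shared with the comparison of LLC and Control. Here 0 of the 10 enzymes were called by limma, against 3.08% of all genes, and 3 had an unadjusted p under 0.05, against 19.9% of all genes. The 3 were Eno3 at -0.24, Pfkm at -0.17 and Pgk1 at -0.15, and Ldhb was at 0.08 (adjusted p = 0.616, limma). When scaled to the myofiber list, Ldhb passed at 0.23 (adjusted p = 0.0347, limma). Without LLC + rFibcd1 replicate 4, Pfkm passed at -0.22 (adjusted p = 0.0423, limma).

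**Figure D2:**
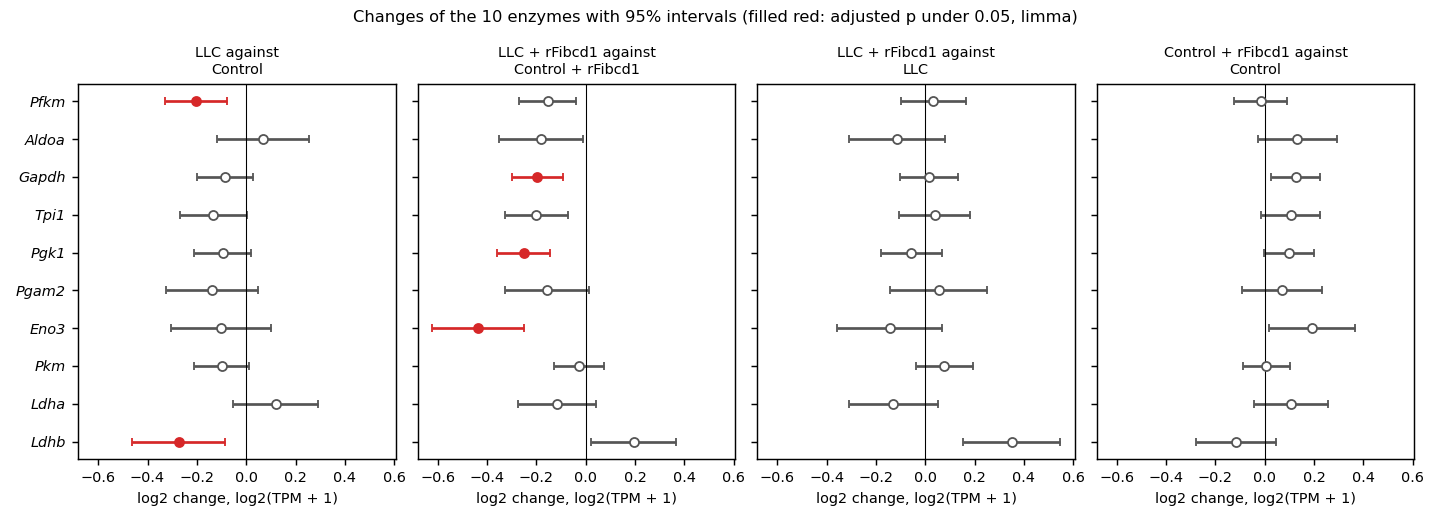
Log2 change of each enzyme on the log2(TPM + 1) scale with its 95% interval from limma, in 4 comparisons of groups, filled red where the adjusted p was under 0.05. Pfkm and Ldhb are called in LLC against Control, Gapdh, Pgk1 and Eno3 in LLC + rFibcd1 against Control + rFibcd1, and 0 enzymes in the comparisons of rFibcd1 with mock injection.

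rFibcd1 itself was then compared with mock injection within each tumor state. In tumor-bearing mice 0 of the 10 enzymes were called by limma, against 0.113% of all genes, and 1, Ldhb, had an unadjusted p under 0.05, against 22.7% of all genes. Ldhb measured 1724, 1492, 1631 and 1492 TPM in LLC + rFibcd1, above all of the LLC mice at 1190, 1424 and 1125 TPM. Of all genes, 5.26% were higher without overlap in this comparison. The log2 difference of Ldhb was 0.35 ± 0.092 (SE, unadjusted p = 0.00172, adjusted p = 0.134, limma), with a 95% interval of 0.15 to 0.55. For the other 9 enzymes the differences lay between -0.14 and 0.08. Pfkm, which was lower in LLC than in Control mice, was at 977, 866, 979 and 1068 TPM in LLC + rFibcd1, and its difference from LLC was 0.03 with an interval of -0.10 to 0.16.

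In tumor-free mice 0 of the 10 enzymes were called by limma, as were 0 of all 13305 genes tested, of which 4.39% had an unadjusted p under 0.05. By limma, the unadjusted p was under 0.05 for Gapdh at 0.13 ± 0.046 (unadjusted p = 0.0158, limma) and for Eno3 at 0.19 ± 0.082 (unadjusted p = 0.0345, limma), both on the log2 scale and higher with rFibcd1. The test of whether rFibcd1 acted differently in tumor-bearing and tumor-free mice called 0 enzymes by limma and 0 of all genes, of which 8.58% had an unadjusted p under 0.05. Ldhb had the largest interaction, 0.47 ± 0.120 (unadjusted p = 0.0014, adjusted p = 0.174, limma), followed by Eno3 at -0.34 (unadjusted p = 0.0201, limma), Aldoa at -0.25 (unadjusted p = 0.0532, limma) and Ldha at -0.24 (unadjusted p = 0.0478, limma).

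The balance of lactate dehydrogenase subunits was read within each mouse. The ratio of Ldha to Ldhb was 0.435, 0.307 and 0.417 in LLC and 0.328, 0.338, 0.289, 0.226 and 0.285 in Control mice. LLC replicates 1 and 3 lay above all Control mice and replicate 2 within their range. In LLC + rFibcd1 the ratio was 0.227, 0.300, 0.262 and 0.313. In Control + rFibcd1 it was 0.423, 0.313, 0.328, 0.346 and 0.300. On the log2 scale the mean was -1.39 ± 0.27 in LLC (SD, n = 3) and -1.78 ± 0.23 in Control (SD, n = 5; two-sided exact permutation p = 0.0893). LLC + rFibcd1, at -1.87 ± 0.21 (SD, n = 4), differed from LLC with an exact p of 0.0571 and from Control + rFibcd1 with an exact p of 0.0317. After adjustment over the 24 ratio tests these were 0.214, 0.190 and 0.143, and no ratio passed.

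Muscle-enriched isozymes were also set against their counterparts of other tissues. The ratio of Pfkm to Pfkp, the platelet form of phosphofructokinase, was 164, 223 and 154 in LLC and 406, 311, 386, 451 and 444 in Control mice. The groups did not overlap, and the log2 ratio was 7.23 ± 0.24 (SD, n = 3) against 8.18 ± 0.17 (SD, n = 5). The two-sided exact permutation p of 0.0179 is the smallest that this design allows, and the adjusted p was 0.143. The ratio of Pfkm to Pfkl, the liver form, was lower in LLC by a log2 difference of -1.15 (exact p = 0.0357, adjusted p = 0.143). That of Eno3 to Eno1, the broadly expressed enolase, differed by -0.85 (exact p = 0.0357, adjusted p = 0.143) and that of Pgam2 to Pgam1 by -0.80 (exact p = 0.0714, adjusted p = 0.190). In all 3 of these the LLC range overlapped that of Control. Aldoa to Aldoc, the brain form, differed by -0.13 (exact p = 0.804), with Aldoc near or below 2.60 TPM in every mouse. With a mouse left out in turn, the difference of Pgam2 to Pgam1 ranged from -1.09 to -0.49, the latter without LLC replicate 1, and that of Aldoa to Aldoc from -0.40 to 0.27, the latter without LLC replicate 3. The differences of Eno3 to Eno1 (-1.09 to -0.57), Pfkm to Pfkl (-1.50 to -0.81) and Pfkm to Pfkp (-1.09 to -0.87) kept their sign.

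**Figure D3:**
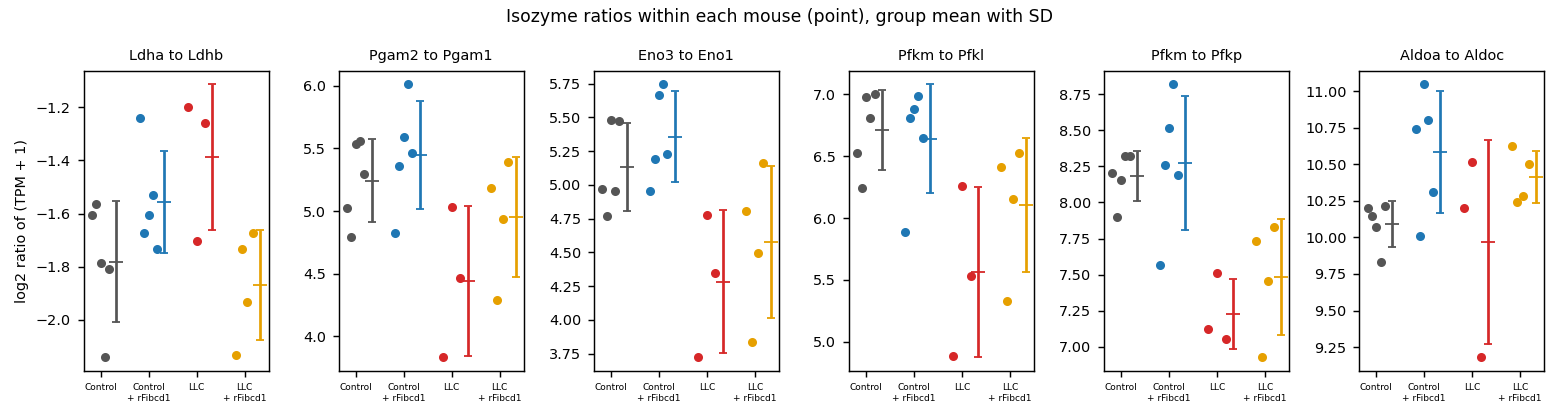
Log2 ratio of 6 isozyme pairs, from TPM + 1, in each mouse (points), by group on the horizontal axis, with the group mean and SD. The Pfkm to Pfkp ratio does not overlap between LLC (mean 7.23) and Control (mean 8.18), whereas Ldha to Ldhb runs from -1.39 in LLC to -1.87 in LLC + rFibcd1.

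The counterpart isoforms were mostly higher in LLC. Of 18 further isoforms of glycolytic enzymes 12 were abundant enough to test, and in LLC against Control 7 were higher and 1 lower, against 29.7% of all genes called higher, with a median log2 change of 0.59 against 0.16 over all genes. Pfkl measured 20.4 ± 9.12 TPM in LLC (SD, n = 3) and 9.58 ± 2.10 in Control (SD, n = 5), a log2 change of 0.95 ± 0.28 (SE, adjusted p = 0.0216, limma). Pfkp was at 5.37 ± 0.870 and 2.77 ± 0.344 TPM, a change of 0.75 ± 0.20 (adjusted p = 0.0143, limma). Eno1 was at 78.2 ± 30.1 and 44.5 ± 7.20 TPM, a change of 0.75 ± 0.27 (adjusted p = 0.0437, limma). Eno1b, a close copy listed separately, reached 7.27 TPM in Control replicate 3, and with the copy added Eno1 no longer passed (adjusted p = 0.0528, limma). Bpgm, which makes the red cell metabolite bisphosphoglycerate, rose by 0.66, Hk1 by 0.54, Hk3, a hexokinase of leukocytes, by 0.65 and Eno2, the neuronal enolase, by 0.54. Of these, Hk1 had a mean of 6.84 TPM in LLC against 4.38 in Control. Eno2, at 2.35 against 1.35 TPM, and Hk3, at 1.48 against 0.585 TPM, were near the floor. Hk3 was below 1 TPM in every Control mouse. Pgam1, at 66.3 ± 24.5 against 40.7 ± 9.03 TPM, did not pass. Hk2, the main hexokinase of muscle, was the isoform called lower, at 134 ± 5.88 against 178 ± 25.9 TPM, a change of -0.40 ± 0.10 (adjusted p = 0.0136, limma), and was singled out after its values were seen. All 8 calls were lost without LLC replicate 3 (adjusted p from 0.0697 for Hk1 to 0.227 for Bpgm, limma), and those of Pfkl, Eno1, Eno2 and Hk2 also without LLC replicate 1 (from 0.0508 for Hk2 to 0.238 for Eno1). Bpgm, Eno1 and Eno2 were further lost without Control replicate 3, 4 or 5 (0.0505 to 0.0852), and Eno1 without Control replicate 1, Control + rFibcd1 replicate 2 or 5, or LLC + rFibcd1 replicate 3 (0.0514 to 0.0528). The change of Bpgm shrank to 0.35 without LLC replicate 3, and that of Eno1 to 0.46 without LLC replicate 1. With all mice, Bpgm, Eno1 and Eno2 did not pass without mitochondrially encoded genes, with median-ratio scaling or with quantile normalization (adjusted p = 0.0528 to 0.220, limma). Under quantile normalization Eno2 was at 0.21 and Hk3 at 0.33 (adjusted p = 0.0565, limma), Hk1 shrank to 0.24 and Pfkp to 0.42, both of which still passed, and when scaled to the myofiber list Hk2 was at -0.14 (adjusted p = 0.252, limma). Bpgm did not pass on the compared groups alone (adjusted p = 0.0653, limma), nor Eno1 without a filter on low values (adjusted p = 0.0653, limma).

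Genes around the pathway were called in both directions, against 29.7% called higher and 6.02% called lower over all genes. Of 12 regulators of glycolysis 1 was higher and 1 lower in LLC against Control, the higher being Myc, a growth-related transcription factor, which rose by 0.92 ± 0.26 (SE, adjusted p = 0.0186, limma) from 2.72 TPM. Of 14 glycogen genes 2 were higher and 5 lower. Ppp1r3a, which directs protein phosphatase to glycogen in muscle, fell by 0.50 ± 0.13 (adjusted p = 0.0139, limma), and Phkg2, a catalytic subunit of phosphorylase kinase, rose by 0.45 ± 0.090 (adjusted p = 0.00964, limma). Of 6 carriers of glucose and lactate 2 were higher and 0 lower, among them Slc2a3, a glucose transporter of neurons and blood cells, at 1.85 against 1.02 TPM. Of 16 genes for the entry of pyruvate and reducing equivalents into mitochondria 1 was higher, Pdk3, which inhibits pyruvate dehydrogenase (0.59, adjusted p = 0.0198, limma), and 9 were lower, with a median of -0.22 over the list. Pdk3 was low in level, at a mean of 2.86 TPM in LLC against 1.56 in Control. The more abundant kinases of its family had lower means in LLC, with overlapping ranges: Pdk4 at 318 against 491 TPM, Pdk2 at 254.5 against 275 and Pdk1 at 23.8 against 25.3. Without LLC replicate 3 the calls of Myc, Ppp1r3a, Phkg2, Slc2a3 and Pdk3 were lost (adjusted p from 0.0697 for Phkg2 to 0.119 for Pdk3, limma), and without LLC replicate 1 those of Myc (0.0609) and Slc2a3 (0.0546). Ppp1r3a was at -0.25 when scaled to the myofiber list (adjusted p = 0.0803, limma), and under quantile normalization Pdk3 was at 0.27 (adjusted p = 0.102, limma) and Slc2a3 at 0.19 (adjusted p = 0.208, limma), whereas Phkg2 shrank to 0.18 and Myc to 0.60 and still passed. Without LLC replicate 3, 0 genes of these 4 lists were called. When scaled to the myofiber list 6 glycogen genes and 4 of the pyruvate list were higher and 0 of either lower. These lists were compiled with earlier results of the data known, and their medians are descriptions.

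Markers of other cells moved with the same contrast, in which 29.7% of all genes were called higher. In LLC against Control all 6 B cell markers, all 6 T cell markers, 3 of 6 macrophage markers and all 4 neutrophil markers tested were higher, as were 3 of 5 plasma cell, 1 of 5 endothelial and 1 of 5 red cell markers. The B cell list summed to 226 to 287 TPM in LLC, 2.45 to 97.1 in Control, 3.47 to 139 in Control + rFibcd1 and 18.3 to 282 in LLC + rFibcd1. The T cell list summed to 30.3 to 47.7, 1.45 to 19.6, 1.09 to 11.5 and 3.01 to 48.7 TPM in the same order of groups. The macrophage list summed to 861 to 968, 254 to 548, 204 to 1663 and 369 to 948 TPM. The neutrophil list summed to 41.6 to 100.4, 0.99 to 13.1, 2.25 to 75.3 and 51.6 to 197 TPM. The red cell list summed to 14168, 18509 and 46936 TPM in LLC replicates 1, 2 and 3, to 3848 to 20311 in Control, 3918 to 20822 in Control + rFibcd1 and 14769 to 20952 in LLC + rFibcd1. Most calls in LLC against Control were lost without LLC replicate 3, and whether that loss relates to red cells was not tested. In tumor-bearing against tumor-free mice all 5 red cell, 4 of 5 plasma cell and 4 of 5 endothelial markers were called higher, against 38.8% of all genes. In LLC + rFibcd1 against Control + rFibcd1 all 4 neutrophil markers tested and 4 of 5 endothelial markers were higher, against 7.02% of all genes. There 0 B cell, T cell, macrophage, plasma cell or red cell markers were called. No marker of these lists was at 0 in every mouse, and 0 of the 4 adipocyte markers passed. In LLC against Control 0 markers of these lists were called without LLC replicate 3. The B cell calls were also lost without LLC replicate 1 or Control replicate 5, and the macrophage calls without LLC replicate 1 or 2 or Control replicate 3 or 5, while 3 T cell markers were called without LLC replicate 1 or Control replicate 5. The pooled red cell and plasma cell calls shrank to 1 each without LLC replicate 3, and those of plasma cells to 2 without LLC replicate 2. The part of these cells in the levels of the enzymes and isoforms was not tested, and in whole tissue fewer myofibers and less RNA per myofiber cannot be told apart.

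The enzymes were then read beside other myofiber transcripts. In LLC against Control, where 6.02% of all genes were called lower and the median of all genes was 0.16, 9 of 12 myofiber structure genes were lower, with a median log2 change of -0.27, as were 6 of 12 fast fiber genes (median -0.20), 0 of 9 slow fiber genes (median -0.02) and all 15 nuclear genes of mitochondrial respiration (median -0.25). Without LLC replicate 3, 0 genes of these lists were called (medians of -0.23, -0.23 and -0.18 for myofiber structure, fast fiber and respiration), and without LLC replicate 1, 3 of the myofiber structure genes were. The median of the 10 enzymes was -0.10 in LLC against Control. In LLC + rFibcd1 against Control + rFibcd1, 1.04% of all genes were called lower. There 5 of 12 fast fiber genes (median -0.41), 3 of 12 myofiber structure genes (median -0.16) and 1 of 15 respiration genes (median -0.06) were lower. In that comparison 1 of 9 slow fiber genes was higher, and the median of the 10 enzymes was -0.17. In LLC + rFibcd1 against LLC 0 genes of these lists were called. All 15 respiration genes and all 9 slow fiber genes had positive differences there. Of the respiration genes 10 had an unadjusted p under 0.05 (limma), against 22.7% of all genes. The myofiber structure list summed to 42589 to 45292 TPM in LLC and 49712 to 52765 in Control. With TPM scaled to that list, Pfkm in LLC against Control turned to 0.05 and Ldhb moved to -0.02, neither of which passed, whereas Aldoa at 0.32 (adjusted p = 0.0126, limma) and Ldha at 0.38 (adjusted p = 0.0132, limma) were called higher. In tumor-bearing against tumor-free mice on that scale, Eno3 was at -0.09 (adjusted p = 0.328, limma), and Pkm at 0.14 (adjusted p = 0.0215, limma), Ldha at 0.18 (adjusted p = 0.0488, limma) and Ldhb at 0.18 (adjusted p = 0.00386, limma) were called higher. With the mitochondrially encoded genes taken out of the total, 6 enzymes were called in LLC against Control, all lower, adding Gapdh at -0.20, Tpi1 at -0.24, Pgk1 at -0.21 and Pkm at -0.21 to Pfkm and Ldhb. Direction and number of the enzymes called therefore depend on the total against which they are read.

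**Figure D4:**
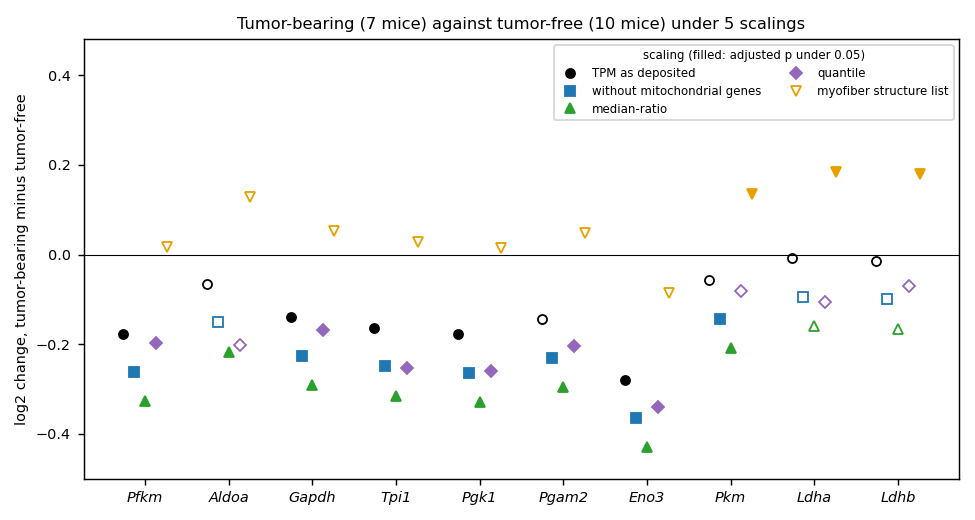
Log2 difference of each enzyme between 7 tumor-bearing and 10 tumor-free mice under 5 scalings of TPM, filled where the adjusted p from limma was under 0.05. Values lie below 0 under 4 scalings and, except for Eno3, above 0 when scaled to the myofiber structure list.

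The enzymes differed in how closely they varied together from mouse to mouse. Each was compared on the log2(TPM + 1) scale with the mean of the other 9, all standardized, over the 17 mice, which share the fixed total of TPM. Pearson's r was 0.92 for Gapdh, 0.91 for Tpi1, 0.90 for Pgam2, 0.87 for Eno3 and 0.87 for Pgk1. It was 0.71 for Pfkm, 0.68 for Pkm, 0.63 for Aldoa, 0.33 for Ldha and -0.14 for Ldhb. With the group means taken out, r was 0.88 for Gapdh and Pgam2, 0.43 for Ldha and -0.09 for Ldhb. Among genes that are not in the set, Timmdc1 (r = 0.91), Fam213b (0.89), Sar1b (0.86) and Aimp2 (0.86) were among the 5 most like the mean of the 10. Timmdc1 encodes an assembly factor of respiratory complex I. These correlations are descriptions over 17 mice in 4 groups.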

How the data were processed

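The authors prepared libraries from diaphragm RNA, trimmed and filtered the paired reads, aligned them to GRCm38 in CLC Genomics Workbench and deposited TPM per gene symbol. The annotation release and strandedness of counting were not stated, and the sources name different kits and sequencers. No column was left without a sample. Limma 3.58.1 in R 4.3.3 was run on log2(TPM + 1) for the 13305 genes that reached 1 TPM in 3 or more samples, all 10 enzymes included, with the 4 groups in a linear model (13 residual degrees of freedom), an expression trend and two-sided tests. P-values were adjusted by Benjamini-Hochberg over all genes tested, with a threshold of 0.05. A pooled contrast weighted groups by size. The pseudocount makes changes of low genes too small. The study used Kruskal-Wallis and Dunn tests, and Dunn's test served as an alternative because groups were small. Isozyme ratios were tested by exact permutation.

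Depth was recovered from low values, of which 82.1% to 85.6% per sample lay within 0.02 of a whole read (4% for random values), and intervals cover spread between mice. Beside the 10 enzymes, the 12 pathway genes with the largest change among those called in LLC against Control, the partner isozymes and genes among the 5 most alike are named, and 1 of these is not reported here. Members and lists were chosen with earlier results of these data known. Symbols were matched to GENCODE vM21 (94.7% of symbols), and start windows came from RefSeq on GRCm38.p6. The test was checked on simulated data. Alternatives were pseudocount, filters, scalings, added gene copies, a fit without trend, the replicate block, fits on the compared groups, Dunn's test and each mouse left out.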

Additional observations from a re-analysis of the deposited data

How the results depend on the processing

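The number of enzymes called in LLC against Control, 2 as reported, was 6 without mitochondrially encoded genes, 6 with median-ratio scaling, 4 with quantile normalization, 1 when fitted on the compared groups alone and 0 by Dunn's test, which called 0 of all genes. It ran from 0 to 2 with each mouse left out. Without LLC replicate 3 only 24 of all genes were called, against 4759. In LLC + rFibcd1 against Control + rFibcd1 the 3 enzymes called became 1 when scaled to the myofiber list (Ldhb, higher), 4 without mitochondrial genes, with quantile normalization and with a filter of 5 TPM in 3 samples, 1 on the compared groups and 0 by Dunn's test, and ran from 2 to 5 with each mouse left out. In LLC + rFibcd1 against Control the count of 0 became 1 (Ldhb) when scaled to the myofiber list and 0 to 1 with each mouse left out, and the 5 called in tumor-bearing against tumor-free mice became 8 with median-ratio scaling and 3, all higher, when scaled to the myofiber list. That scaling also turned Pfkm in LLC against Control to 0.052, and, for tumor-bearing against tumor-free mice, moved Pfkm to 0.016, Gapdh to 0.053, Tpi1 to 0.029, Pgk1 to 0.015, Pkm to 0.14, Ldha to 0.18 and Ldhb to 0.18. The median change of all genes in LLC against Control moved from 0.16 to 0.075 without mitochondrial genes, 0.0055 with median-ratio scaling, -0.099 with quantile normalization and 0.38 when scaled to the myofiber list, and the share of higher genes among those called from 83.2% to 62.9%, 52.7%, 32.2% and 99.6%. Same-numbered mice of different groups did not deviate together as a set (22 pairs, correlations of -0.46 to 0.49, 4 over 0.1). Their median was -0.061, against -0.026 for the other pairs. The labels give no pairing, and these correlations cannot exclude a weak one. With a replicate block 0 enzymes and 5 of all genes were called in LLC against Control, the 5 calls in tumor-bearing mice were kept, and Gapdh in LLC + rFibcd1 against Control + rFibcd1 was lost (adjusted p = 0.0729, limma). The 13 named isoforms and pathway genes of LLC against Control were all lost with that block and by Dunn's test. Dunn's test called 0 enzymes in all 5 pairwise comparisons, with 1 at an unadjusted p under 0.05 in LLC against Control and in LLC + rFibcd1 against LLC, 2 in LLC + rFibcd1 against Control, 6 in LLC + rFibcd1 against Control + rFibcd1 and 0 in Control + rFibcd1 against Control. The causes of these shifts were not tested.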
